A study of Homo sapiens with 10 samples.

Results

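CARNMT1, EFHD2, TULP3, NIPA1, POMK, LCLAT1, ABCB10 and IL15RA are 8 of the 17978 genes tested in RNA-seq of human lung cancer cells treated with an siRNA against p53, out of 57736 gene IDs in the table. They were chosen by their measured depth-scaled counts (CPM, counts divided by library size and scaled by TMM normalization factors), which lay above the control level with p53 siRNA in each of 3 lines, over all 10 libraries. The p53 siRNA groups were NCI-H2087 cells, whose p53 carries V157F (n = 2), NCI-H441 cells with R158L (n = 2), and NCI-H2110 cells with R158P (n = 1). Each was set against the same line transfected with control siRNA, with the same number of libraries. All groups carry a p53 mutation and received an siRNA, so there is no untransfected group and no line with normal p53 among them. No mutation occurs in more than 1 line, so mutation and line cannot be told apart. The titles call the p53 arm a knockout, whereas the protocol names an siRNA, and it is treated here as a knockdown. The labels do not say whether replicates were separate cultures, so the spread between libraries that the p-values rest on may be technical.

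Library totals ran from 18336672 to 25810934 counts, and all 8 genes passed the filter on low counts. The epithelial marker EPCAM was present in every library at 126 to 325 CPM. The epithelial keratins KRT7, KRT8 and KRT19 were higher with p53 siRNA in NCI-H2087 and lower with it in NCI-H2110. KRT19 had 310 and 448 CPM in NCI-H2087 with p53 siRNA, against 68.5 and 77.5 CPM with control siRNA. In NCI-H2110 it had 146 CPM with p53 siRNA against 176 CPM with control siRNA. The lung marker NKX2-1 was present in every library at 27.0 to 338 CPM. Other lung markers differed between lines and arms. SFTPC was at or near 0 throughout, with at most 0.415 CPM, and in NCI-H2110 SFTPA1, NAPSA and SFTPB were near 0 too, at 0.0867, 0.347 and 0.65 CPM with p53 siRNA against 0.0394, 0.394 and 1.02 CPM with control siRNA. In NCI-H2087 SFTPA1 had 115 and 23.8 CPM with p53 siRNA against 584 and 641 CPM with control siRNA. SFTPB had 1.79 and 0.803 CPM there with p53 siRNA, against 15.1 and 27.8 CPM with control siRNA. The immune marker PTPRC stayed at or below 0.215 CPM and the endothelial marker VWF at or below 0.205 CPM. Other markers of these types were higher. The immune marker CD14 had 7.45 CPM in NCI-H2110 with p53 siRNA and 6.81 CPM with control siRNA. LYZ, also an immune marker, was at 1.11 to 2.52 CPM, and the endothelial marker CDH5 at 0.217 to 1.36 CPM. Of the fibroblast markers, COL1A1 was at 12.1 to 48.7 CPM, whereas COL1A2, COL3A1, DCN and PDGFRB stayed at or below 0.433 CPM. CD68, used as an immune marker, was at 14.8 to 363 CPM over all libraries, with 257 and 363 CPM in NCI-H2087 with p53 siRNA against 113 and 134 CPM with control siRNA. In bulk RNA, fewer cells of a type and less RNA per cell cannot be told apart. The share of counts on nuclear copies of mitochondrial genes was 2.48% and 2.25% in NCI-H2087 with p53 siRNA, against 4.85% and 5.51% with control siRNA. In NCI-H441 it was 5.16% and 4.77% with p53 siRNA, against 5.74% and 3.94% with control siRNA, and in NCI-H2110 12% with p53 siRNA against 11.8% with control siRNA. The part of these markers and of this share in the results was not tested.

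The 8 genes belong to different pathways. IL15RA encodes the high-affinity subunit that presents interleukin-15 to lymphocytes. EFHD2 is a calcium-binding protein that bundles actin, and TULP3 carries receptors into the primary cilium. CARNMT1 methylates carnosine and histidine residues, LCLAT1 attaches acyl chains to lysophospholipids including lysocardiolipin, and POMK phosphorylates the O-mannose glycan of dystroglycan. ABCB10 is an ATP-driven transporter of the mitochondrial inner membrane linked to haem synthesis, and NIPA1 is a magnesium transporter whose mutations cause a hereditary spastic paraplegia. An siRNA acts by pairing with its target, and the seed of either strand can also lower other transcripts that hold a short match in the 3′ UTR.

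IL15RA (ENSG00000134470) had 26.2 and 37.5 CPM in NCI-H2087 with p53 siRNA, against 5.83 and 7.50 CPM with control siRNA. In NCI-H441 it had 17.1 and 25.6 CPM with p53 siRNA and 7.12 and 11 CPM with control siRNA, and in NCI-H2110 6.33 CPM with p53 siRNA against 3.19 CPM with control siRNA. Its levels were lowest in NCI-H2110, where even the p53 siRNA library lay below both NCI-H441 control libraries, and within each line the arms did not overlap. Its log2 change was 2.25 ± 0.31 (SE) in NCI-H2087, with 1.23 ± 0.30 in NCI-H441, and its log2 ratio in NCI-H2110 was 0.97 with no replicate.

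EFHD2 (ENSG00000142634) had 120 and 115 CPM in NCI-H2087 with p53 siRNA, against 18.2 and 17.4 CPM with control siRNA. In NCI-H441 the values were 68.1 and 90.5 CPM with p53 siRNA and 30.9 and 34.1 CPM with control siRNA, and in NCI-H2110 34.6 CPM with p53 siRNA against 23.1 CPM with control siRNA. The log2 changes were 2.73 ± 0.19 (SE) in NCI-H2087, with 1.29 ± 0.18 in NCI-H441, and the ratio in NCI-H2110 was 0.58. EFHD2 thus had both the highest change of the 8 in NCI-H2087 and the lowest ratio of the 8 in NCI-H2110, where the p53 siRNA level came close to the NCI-H441 control levels. TULP3 (ENSG00000078246) had 37.1 and 32.5 CPM in NCI-H2087 with p53 siRNA, against 12.4 and 12.6 CPM with control siRNA. Its levels in NCI-H441 were 97.2 and 104 CPM with p53 siRNA and 54.6 and 53.3 CPM with control siRNA, and in NCI-H2110 64.3 CPM with p53 siRNA against 36.0 CPM with control siRNA. TULP3 was the only 1 of the 8 whose NCI-H2087 p53 siRNA libraries stayed below the NCI-H441 control libraries, and its change in NCI-H2087, 1.47 ± 0.16, was the lowest of the 8 there. It was 0.90 ± 0.16 in NCI-H441, and the NCI-H2110 ratio was 0.84. TULP3 shares 60 exon bases with RHNO1 on the same strand, whose common log2 change over the 3 lines was −0.17 ± 0.13 (SE).

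Among the enzymes, CARNMT1 (ENSG00000156017) had 51.3 and 50.8 CPM in NCI-H2087 with p53 siRNA, against 7.94 and 8.03 CPM with control siRNA. In NCI-H441 it had 46.0 and 29.2 CPM with p53 siRNA and 17.8 and 18.8 CPM with control siRNA, and in NCI-H2110 58.1 CPM with p53 siRNA against 18.0 CPM with control siRNA. The 2 NCI-H441 libraries with p53 siRNA were far apart, with log2 ratios of 1.37 and 0.64 to the control library of the same number. The fitted log2 changes were 2.68 ± 0.24 (SE) in NCI-H2087, with 1.04 ± 0.22 in NCI-H441, and the NCI-H2110 ratio of 1.69 was the highest of the 8. LCLAT1 (ENSG00000172954) had 76.8 and 66.0 CPM in NCI-H2087 with p53 siRNA, against 18.7 and 13.4 CPM with control siRNA. It had 81.3 and 71.5 CPM in NCI-H441 with p53 siRNA and 42.5 and 37.5 CPM with control siRNA, and in NCI-H2110 61.6 CPM with p53 siRNA against 31.6 CPM with control siRNA. With p53 siRNA its levels lay between 61.6 and 81.3 CPM in all 3 lines, and with control siRNA NCI-H2087 was lowest. Its log2 change was 2.16 ± 0.21 in NCI-H2087, 0.93 ± 0.20 in NCI-H441, with a ratio of 0.96 in NCI-H2110. POMK (ENSG00000185900) had 14.6 and 16.4 CPM in NCI-H2087 with p53 siRNA, against 5.67 and 4.6 CPM with control siRNA. NCI-H441 had 25.8 and 22.2 CPM with p53 siRNA and 14.3 and 12 CPM with control siRNA, and NCI-H2110 had 20.4 CPM with p53 siRNA against 10.9 CPM with control siRNA. The arms did not overlap in any line, and the log2 changes were 1.60 ± 0.22 in NCI-H2087, 0.87 ± 0.21 in NCI-H441, with a ratio of 0.90 in NCI-H2110.

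Of the transporters, ABCB10 (ENSG00000135776) had 24.7 and 15.8 CPM in NCI-H2087 with p53 siRNA, against 5.72 and 4.71 CPM with control siRNA. In NCI-H441 it had 30.7 and 25.2 CPM with p53 siRNA and 17.1 and 17.1 CPM with control siRNA, and in NCI-H2110 31.7 CPM with p53 siRNA against 13.6 CPM with control siRNA. The NCI-H2087 replicate 2 library with p53 siRNA lay below both NCI-H441 control libraries, and no arm overlapped within a line. The log2 changes were 1.96 ± 0.26 (SE) in NCI-H2087, with 0.71 ± 0.24 in NCI-H441, the lowest of the 8 in that line, with a ratio of 1.21 in NCI-H2110. NIPA1 (ENSG00000170113) had 35.4 and 34.4 CPM in NCI-H2087 with p53 siRNA, against 11.9 and 11.9 CPM with control siRNA. Its NCI-H441 libraries held 35.4 and 36.2 CPM with p53 siRNA and 18.3 and 21.5 CPM with control siRNA, and the NCI-H2110 libraries 28.4 CPM with p53 siRNA against 12.6 CPM with control siRNA. With p53 siRNA the NCI-H2087 and NCI-H441 levels overlapped. An opposite-strand transcript that shares 448 exon bases with NIPA1 had 0 counts in every library. The log2 changes of NIPA1 were 1.55 ± 0.18 in NCI-H2087, 0.84 ± 0.17 in NCI-H441, with a ratio of 1.17 in NCI-H2110.

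**Figure D1:**
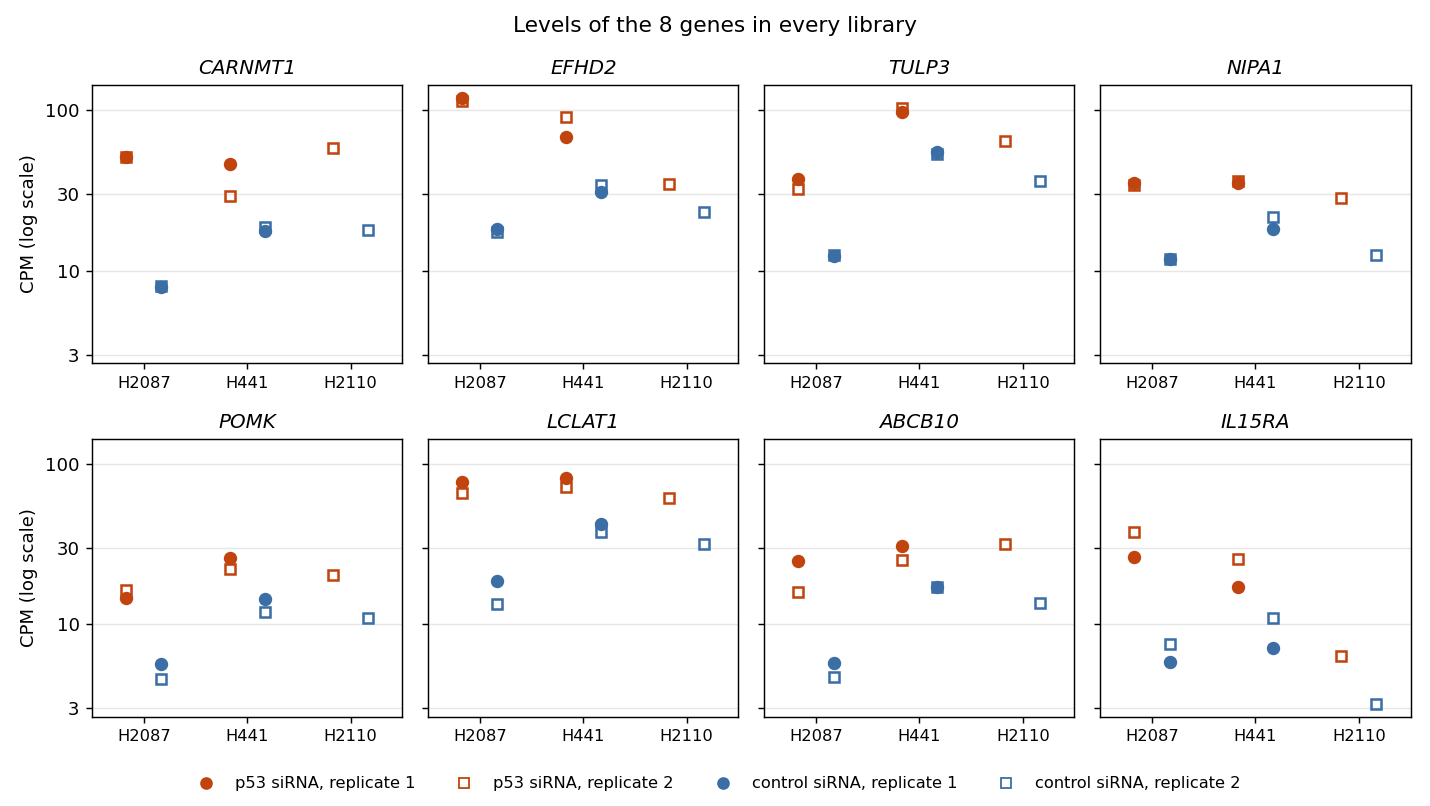
Level of each gene in CPM on a log scale, with 1 point per library, p53 siRNA left of control siRNA in each line. In every panel and line the p53 siRNA points lie above the control points, which is the pattern the genes were chosen for, and the gap is widest in NCI-H2087.

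Over the 8 genes the median log2 change was 2.06 in NCI-H2087 (range 1.47 to 2.73), 0.92 in NCI-H441 (0.71 to 1.29) and 0.97 in NCI-H2110 (0.58 to 1.69). The medians over all tested genes were −0.03, 0.01 and 0.00 in the same order of lines. Scaled by library totals alone, the median of all genes in NCI-H2087 moved to −0.21 and that of the 8 to 1.88. The common change over the 3 lines ran from 1.11 for TULP3 to 1.81 for CARNMT1, with a median of 1.36 against −0.02 for all genes. In edgeR's quasi-likelihood test with Benjamini-Hochberg adjustment over all genes, 4.98% of tested genes were called higher and 3.69% lower in NCI-H2087 at an adjusted p below 0.05. Of those calls 57.4% were higher, and 33.2% with library totals alone. In NCI-H441 0.00556% were called in either direction, and in the common change 0.339% were called higher and 0.0556% lower. Of the 8 genes, 8 passed in NCI-H2087, 0 did in NCI-H441 and 8 in the common change. These contrasts chose the genes, so nothing is read from those counts. The change was larger in NCI-H2087 than in NCI-H441 for each of the 8. That difference was not tested, because the same values chose the genes.

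**Figure D2:**
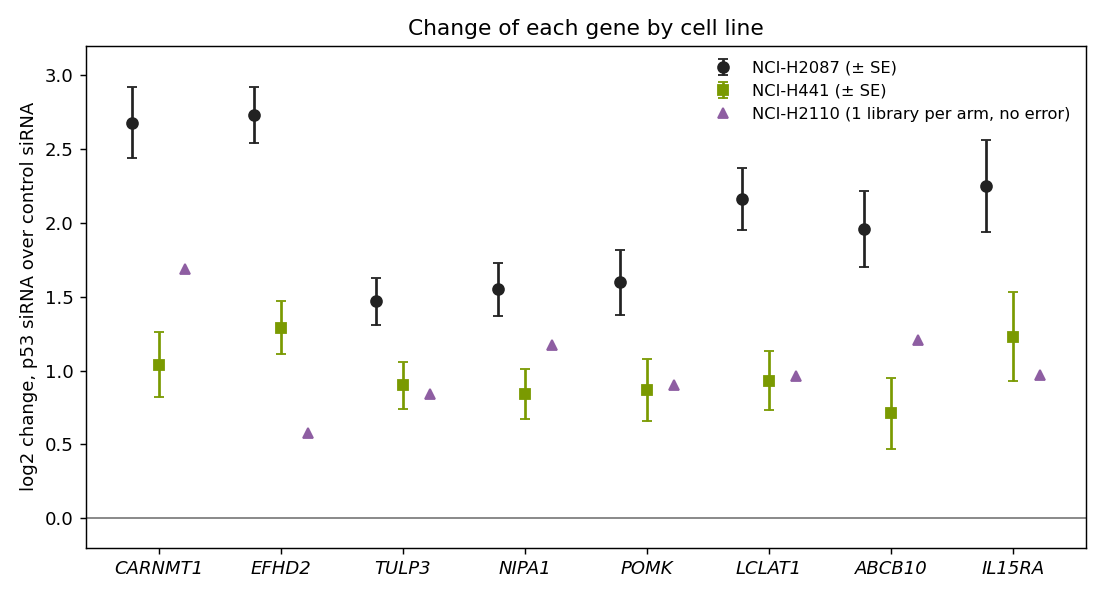
Log2 change of each gene, p53 siRNA over control siRNA, by line, with bars of 1 SE in NCI-H2087 and NCI-H441 and none for NCI-H2110, which had 1 library per arm. The NCI-H2087 points lie between 1.47 and 2.73, above the NCI-H441 points at 0.71 to 1.29, and the NCI-H2110 points spread from 0.58 to 1.69.

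The pattern that chose the genes was not confined to them. Of the 17978 tested genes, 543 (3.02%) had every p53 siRNA library above every control library of its line in all 3 lines, and 605 (3.37%) had every one below. With a mean of at least 5 CPM, 450 of the 543 remained. The choice had no stated numeric threshold. When these 450 were ordered by their smallest change in any line, CARNMT1 came at place 2 with 1.04, IL15RA at 3 with 0.97, LCLAT1 at 5 with 0.93 and POMK at 7 with 0.87. NIPA1 stood at 8 and TULP3 at 9, both with 0.84, ABCB10 at 18 with 0.71 and EFHD2 at 34 with 0.58. Genes not in the group stood among them, with PSG1, a member of a multigene family with near-identical copies, at place 1 with 1.16. CDH1, which encodes the adhesion protein E-cadherin, stood at place 4 with 0.94, the membrane-binding protein gene ANXA2 at place 6 with 0.92, and UQCC6, a respiratory chain assembly factor gene, at place 10 with 0.83.

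The levels in the control siRNA arm of NCI-H2087 were also set against those of NCI-H441. These control libraries entered the contrasts that chose the genes, and choosing on a large rise favours genes with low control levels, so the differences are given as a description, with no p. Of the 8 genes, 7 were called lower in NCI-H2087 in edgeR's fit over all genes, where 20.1% of tested genes were called lower, and nothing is read from that count. The median difference of the 8 was −1.26 log2, against 0.02 for all genes. TULP3 lay furthest apart, at 12.4 and 12.6 CPM in NCI-H2087 against 54.6 and 53.3 CPM in NCI-H441, a log2 difference of −2.11 ± 0.17 (SE). The difference was −1.71 ± 0.26 for ABCB10, −1.36 ± 0.22 for POMK and −1.32 ± 0.20 for LCLAT1. It was −1.19 ± 0.23 for CARNMT1, −0.87 ± 0.18 for EFHD2 and −0.74 ± 0.18 for NIPA1. IL15RA differed by −0.44 ± 0.31, which became −0.74 without control replicate 1 of NCI-H441 and −0.07 without its control replicate 2. In NCI-H2110 with control siRNA, IL15RA was below both other lines at 3.19 CPM, whereas the other 7 genes lay above the NCI-H2087 control libraries.

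The same comparison in the p53 siRNA arm, whose libraries chose the genes too, was added after the data had been seen. The median difference of the 8 there was −0.07 log2 against 0.00 for all genes. In edgeR's fit 3 of the 8 genes were called, where 43.9% of all tested genes were called in either direction, and without p53 siRNA replicate 2 of NCI-H2087 1 was. TULP3 had a difference of −1.53 ± 0.16 (SE), POMK −0.63 ± 0.21 and EFHD2 0.57 ± 0.18, which were the 3 called. The POMK and EFHD2 calls were lost in some of the alternatives run. These libraries chose the genes, so nothing is read from the 3 calls or from how they held. IL15RA had 0.58 ± 0.30, NIPA1 −0.04 ± 0.17 and LCLAT1 −0.10 ± 0.20. CARNMT1 had 0.44 ± 0.22, which became 0.81 without p53 siRNA replicate 1 of NCI-H441 and 0.15 without its replicate 2. ABCB10 had −0.46 ± 0.24, which became −0.82 without p53 siRNA replicate 1 of NCI-H2087 and −0.18 without its replicate 2. IL15RA ran from 0.30 to 0.90 with 1 library of the p53 siRNA arm left out.

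**Figure D3:**
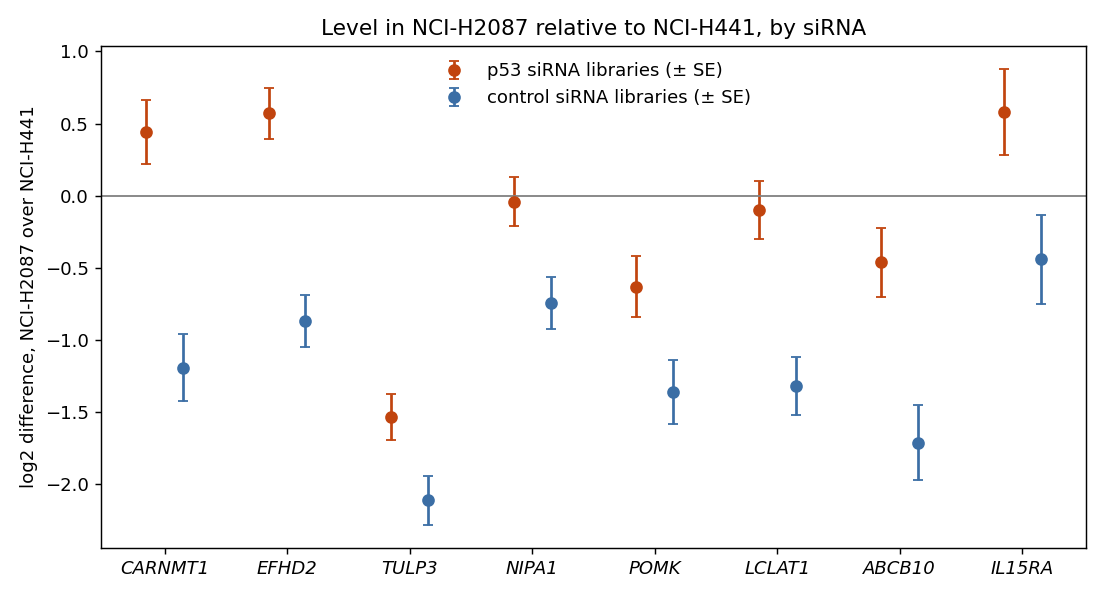
Log2 difference of each gene, NCI-H2087 over NCI-H441, in the p53 siRNA libraries (left point of each pair) and in the control siRNA libraries (right point), with bars of 1 SE. All 8 control siRNA points lie below 0, from −2.11 to −0.44, and the p53 siRNA points lie between −1.53 and 0.58.

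Genes that work with the 8 were read from 8 lists with 123 entries, of which 118 passed the filter on low counts. In NCI-H2087 8 of the 118 rose with p53 siRNA and 5 fell (edgeR, adjusted p below 0.05), beside 4.98% and 3.69% of all tested genes, and the median log2 change of the 118 was 0.04. With library totals alone, 7 rose and 11 fell. In NCI-H441 and in the common change 0 of 118 were called by the same test, and 7 and 24 had an unadjusted p below 0.05. DESeq2 called 0 in NCI-H441 and 7 in the common change, and limma-voom called 0 in both. Of the 118, 2 were called in NCI-H2087 without its control replicate 1, 0 without its control replicate 2 and 6 without its p53 siRNA replicate 2. Without control replicate 2 the changes of FSCN1, CPOX, ABCG2 and NIPAL4 were 0.93, 1.64, 1.28 and 2.03, against 0.93, 1.70, 1.29 and 1.95 with all libraries. With the replicate number as a block, 22 of the 118 were called higher and 18 lower in NCI-H2087, beside 12.8% and 12.6% of all tested genes. These shares over all tested genes also stand beside the counts of each list below.

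In the list around IL15RA, 2 of 11 genes tested rose in NCI-H2087. SOCS3, a feedback inhibitor of cytokine receptors, had 6.11 and 4.10 CPM with p53 siRNA against 1.19 and 1.66 CPM with control siRNA (log2 change 1.83 ± 0.35 SE, adjusted p = 0.0141, edgeR). STAT5B, a transcription factor that signals below the interleukin-15 receptor, had 28.9 and 33.3 CPM with p53 siRNA against 16.2 and 16.9 CPM with control siRNA (0.91 ± 0.19, adjusted p = 0.0201). The ligand gene IL15 had a log2 change of 0.32 in NCI-H2087 (adjusted p = 0.489, edgeR). The log2 change of SOCS3 was 0.30 ± 0.31 in NCI-H441, and its ratio in NCI-H2110 was −0.14.

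Around EFHD2, 1 of 11 genes tested rose in NCI-H2087, and 7 were called higher and 0 lower with the replicate block. FSCN1, which encodes the actin-bundling protein fascin, had 148 and 167 CPM with p53 siRNA, against 83.3 and 82.3 CPM with control siRNA (log2 change 0.93 ± 0.17 SE, adjusted p = 0.0124, edgeR). In the list for TULP3, 0 of 11 genes passed in NCI-H2087, with 2 at an unadjusted p below 0.05 and 2 called lower by edgeR with the replicate block. Its smallest p in the common change belonged to IFT43, a subunit of the intraflagellar transport complex that TULP3 binds, at −0.47 ± 0.16 (adjusted p = 0.21). The TULP3 list had a median log2 change of −0.33 in NCI-H2087, where TULP3 itself was at 1.47.

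Around CARNMT1, 0 of 9 genes passed in NCI-H2087, with 4 at an unadjusted p below 0.05. With the replicate block, 1 was called higher and 3 lower. The smallest p of that list in the common change belonged to SETD3, the actin histidine methyltransferase, at −0.37 ± 0.12 (SE, adjusted p = 0.192, edgeR). Of the 21 acyltransferase and cardiolipin genes around LCLAT1, 1 rose, and 2 were called higher and 1 lower with the replicate block. MBOAT2, a lysophospholipid acyltransferase, had 115 and 115 CPM with p53 siRNA in NCI-H2087 against 61.8 and 58.2 CPM with control siRNA (0.94 ± 0.14, adjusted p = 0.00508). In NCI-H441 its log2 change was −0.21 ± 0.14, and its ratio in NCI-H2110 was 0.39.

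Around POMK, 3 of 17 dystroglycan glycosylation genes fell in NCI-H2087 and 0 rose, beside 3.69% and 4.98% of all tested genes. Their median log2 change was −0.25, where POMK itself was at 1.60. With the replicate block, 1 was called higher and 5 lower in NCI-H2087, beside 12.8% and 12.6% of all tested genes. In NCI-H441 and in the common change 0 of the 17 were called, with medians of −0.08 and −0.20. In NCI-H2087 the list held the following call. POMT1, which adds the first mannose, had 9.62 and 9.76 CPM with p53 siRNA against 14.9 and 19.7 CPM with control siRNA (log2 change −0.84 ± 0.22 SE, adjusted p = 0.044, edgeR). That call was lost in 6 of the 14 alternatives run, at an adjusted p of up to 0.334, with the change at −0.60 without control replicate 2 of NCI-H2087.

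The 21 haem and mitochondrial transporter genes around ABCB10 went both ways in NCI-H2087, with 3 higher and 1 lower, or 7 higher and 3 lower with the replicate block. CPOX, an enzyme late in haem synthesis, had 24.8 and 17.3 CPM with p53 siRNA against 6.81 and 6.18 CPM with control siRNA (1.70 ± 0.23 SE, adjusted p = 0.00306, edgeR). ABCG2, a porphyrin and drug exporter, rose by 1.29 ± 0.17 log2 (adjusted p = 0.00293). BLVRB, a biliverdin reductase, had a change of 0.88 ± 0.24 (adjusted p = 0.0493, edgeR), and its call was lost in 7 of the 14 alternatives run, at an adjusted p of up to 0.229. ALAD, an early enzyme of the same synthesis, fell, with −1.01 ± 0.23 (adjusted p = 0.0263, edgeR). In the magnesium transport list around NIPA1, 1 of 17 rose and 1 fell, and 2 were called higher and 4 lower with the replicate block. The related gene NIPAL4 had 8.63 and 9.80 CPM with p53 siRNA against 2.27 and 2.49 CPM with control siRNA (1.95 ± 0.30, adjusted p = 0.0052, edgeR). CNNM4, a magnesium efflux transporter gene, had 21.4 and 22.6 CPM with p53 siRNA against 43.0 and 41.9 CPM with control siRNA (−0.95 ± 0.17, adjusted p = 0.00993, edgeR). The log2 changes in NCI-H441 were −0.30 ± 0.17 for ABCG2, 0.48 ± 0.22 for CPOX and −0.16 ± 0.16 for CNNM4. Their ratios in NCI-H2110 were 0.17, 0.53 and −0.47. NIPAL4 was near 0 in both lines, with 0.41 and 0.368 CPM in NCI-H441 with p53 siRNA against 0.258 and 0.222 CPM with control siRNA.

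**Figure D4:**
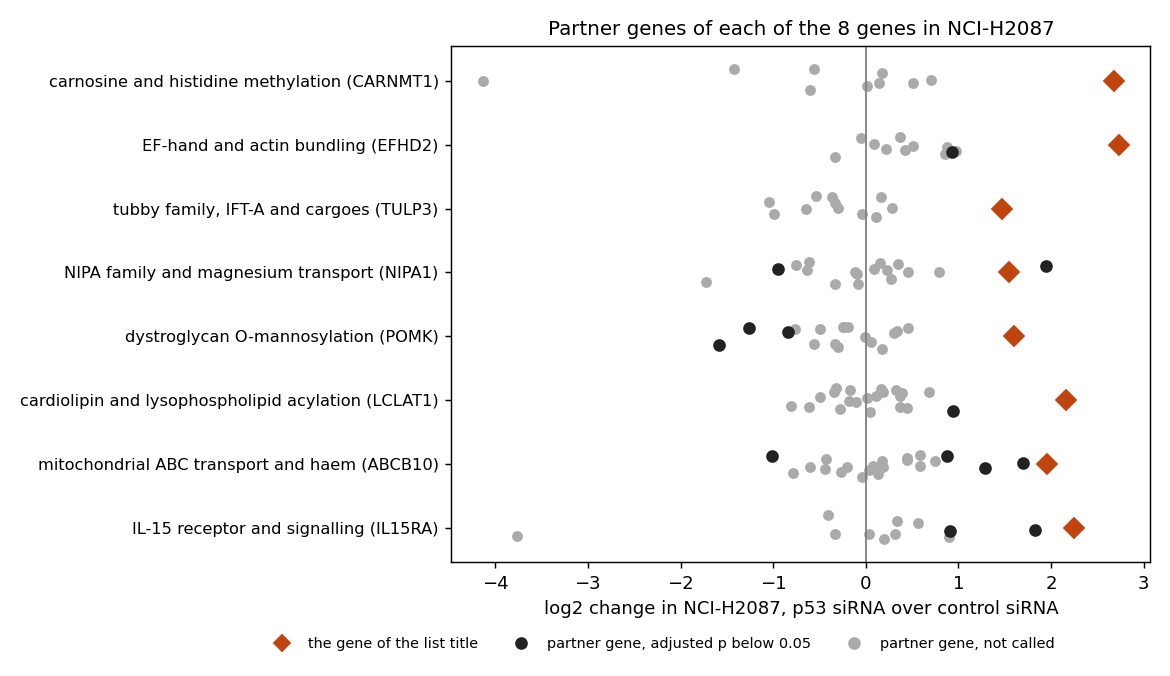
Log2 change in NCI-H2087, p53 siRNA over control siRNA, of the 118 partner genes tested (circles, black where the adjusted p was below 0.05) and of the chosen gene of each list (diamonds). The diamonds lie at 1.47 to 2.73, and of the called circles NIPAL4 at 1.95 lies furthest right.

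The genes beside the 8 on their chromosomes gave another set, defined by position and not by its change. Of 15 nearest tested protein-coding neighbours, edgeR, DESeq2 and limma-voom each called 0 in the common change, 1 had an unadjusted p below 0.05 in each, and their median log2 change was 0.01. The highest were C9orf40 beside CARNMT1 at 0.38 ± 0.19 (SE, adjusted p = 0.399) and TEAD4 beside TULP3 at 0.36 ± 0.14 (adjusted p = 0.292, edgeR). RBM17 and FBH1 on the sides of IL15RA had 0.19 ± 0.13 and −0.21 ± 0.12, NUP133 and TAF5L beside ABCB10 had 0.13 ± 0.11 and 0.08 ± 0.12, and NIPA2 beside NIPA1 had 0.10 ± 0.12. HGSNAT and FNTA beside POMK had 0.04 ± 0.12 and 0.01 ± 0.11. CASP9 and FHAD1 beside EFHD2 had −0.03 ± 0.16 and −0.52 ± 0.41, and CAPN13 and LBH beside LCLAT1 had −0.06 ± 0.36 and −0.66 ± 0.47. NMRK1, also beside CARNMT1, had −0.24 ± 0.17, and RHNO1 beside TULP3 had −0.17 ± 0.13. In NCI-H2087 0 of the 15 were called (edgeR), although 3 had an unadjusted p below 0.05. With the replicate block 2 were, C9orf40 (adjusted p = 0.00516) and TEAD4 (0.00892).

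After subtraction of each line's mean, each of the 8 genes correlated with the mean of the other 7 over the 10 libraries at Pearson's r of 0.94 (IL15RA) to 0.989 (TULP3), which follows from the choice. Among 11101 other genes of at least 5 CPM, YAP1 and ARPC1A were most like their mean (r = 0.995 each), followed by ARSJ (0.994), AREL1 and OTUD4 (0.991 each), MAP3K13 and ATXN10 (0.989 each), MTSS2 (0.988), and DCTD and MYL12B (0.985 each). YAP1, a transcriptional coactivator of the Hippo pathway, had 341 and 333 CPM in NCI-H2087 with p53 siRNA against 172 and 165 CPM with control siRNA. Its common log2 change of 0.65 was smaller than that of any of the 8, and ARSJ, an arylsulfatase gene, had the highest of these 10 at 1.16. The libraries are the same ones that chose the 8 genes, and these r values are a description.

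The 3′ UTRs were searched for GAATATA and CACCCTT, which an earlier search of these same data had brought up. The longest annotated 3′ UTR of each gene in GENCODE 29 was used. GAATATA occurred in 5 of the 8 genes, against 14.9% of the 13874 tested genes with a 3′ UTR. Matches are shown with GAATATA in capitals and 11 bases on each side, because it is the one of these sequences that more than 1 of the 8 genes held, and because in TULP3 it sits in a tandem repeat.
TULP3 site 1: gaatgatctctGAATATAtaaaacacaca
TULP3 site 2: gaacgacccctGAATATAtaaaacacaca
NIPA1 site 1: agaatgttagtGAATATActtcgcagctc
NIPA1 site 2: tttatttgtcaGAATATAataattgcccc
ABCB10 site 1: taaaatttgagGAATATAactaattttca
ABCB10 site 2: ttgatatgaatGAATATAgtgttctttga
EFHD2 site 1: tttatacagatGAATATAaaatgtttttt
IL15RA site 1: tgccattttacGAATATAtgcgtttatat

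TULP3 held 5 matches, at positions 124, 181, 238, 293 and 350 of a 3′ UTR of 1696 bases, and the flanks of sites 2 to 5 were the same letters. NIPA1 held 3 in 5552 bases, ABCB10 2 in 1597, EFHD2 1 in 1619 and IL15RA 1 in 724. CARNMT1 (2747 bases), LCLAT1 (3606) and POMK (557) held 0. CACCCTT occurred in 1 of the 8, in TULP3, against 11.8% of tested genes.

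Outside the 8, GAATATA was present in 37.1% of the 428 other genes of at least 5 CPM that lay above control in every line and had a 3′ UTR. It was present in 12.6% of the 429 that lay below control in every line, and in 16.1% of all other genes of that level. Of the 10 most alike genes 6 held it, of the 15 neighbours 1, and of the partner genes 15.3%. The 3′ UTRs of the genes above control were also longer, with a median of 2058.5 bases against 1605 bases for those below. Over all other tested genes with a 3′ UTR, the median log2 change in NCI-H2087 was −0.02 with no match, 0.09 with 1 and 0.19 with 2 or more. In NCI-H2110 it was −0.04, 0.15 and 0.26 in the same order, whereas in NCI-H441 it was 0.02, −0.01 and 0.00. For CACCCTT the NCI-H2087 medians were 0.00 with no match, −0.06 with 1 and −0.11 with 2 or more. In the same order they were 0.01, 0.01 and 0.01 in NCI-H441, and −0.01, 0.00 and −0.03 in NCI-H2110. CACCCTT was present in 14.3% of the other genes above control in every line and 15.9% of those below. Median 3′ UTR length increased with the number of CACCCTT matches, from 1187 to 2682 and 4278 bases. Median 3′ UTR length also increased with the number of GAATATA matches, from 1120 to 2838 and 4874.5 bases. Among 3′ UTRs of at least 1000 bases the NCI-H2087 medians were 0.10 with a GAATATA match and −0.05 without. They were 0.19 and 0.00 in NCI-H2110, and −0.01 and 0.00 in NCI-H441. Those with a match were still longer, with a median of 3421.5 bases against 2130, so length was not held equal. GAATATA came from an earlier search of these same data, and the same libraries set which genes lay above or below control. These shares and medians are therefore a description and not a separate check. Genes are not independent replicates, and no test was made on them. The sequences of the control siRNA and the p53 siRNA are not given in the sources used here, so a match to either could not be looked up, and the part of an action of either siRNA on these 8 transcripts was not tested.

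**Figure D5:**
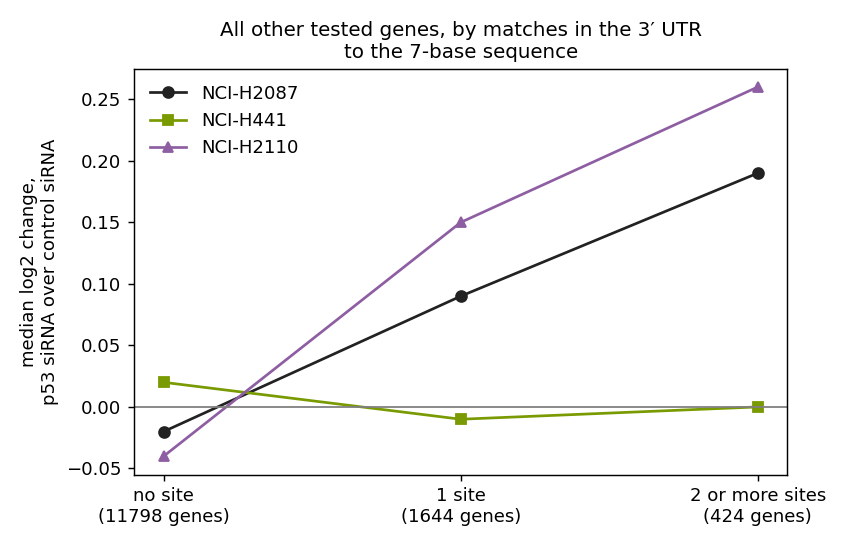
Median log2 change, p53 siRNA over control siRNA, of all tested genes other than the 8, grouped by the number of matches to the 7-base sequence in the 3′ UTR (0, 1, 2 or more), with 1 line per cell line. The medians run from −0.02 to 0.19 in NCI-H2087 and from −0.04 to 0.26 in NCI-H2110, and stay between −0.01 and 0.02 in NCI-H441.

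Promoters of 7 of the 8 genes, 250 bases before to 50 after the start, were read from RefSeq (GRCh38.p14), and that of POMK was not used here. They were searched on both strands for the GC box (letters GGGCGG), the CCAAT box, the E-box (letters CACGTG), the AP-1 site (letters TGANTCA), the ETS core (letters CCGGAAG), the TATA box (letters TATAAA), the NRF1 site (the letters GCGCA, then any base, followed by the letters GCGC) and the p53 half-site, over the first listed start of each gene. A GC box was present in 6 of 7, against 67.6% of 12238 tested genes, and CCAAT in 3 of 7 (CARNMT1, TULP3 and LCLAT1), against 36.5%. The NRF1 site was present in TULP3 and NIPA1, 2 of 7 against 11%, and the ETS core in LCLAT1 alone, 1 of 7 against 18.0%. None of the 7 windows held the letters of the p53 half-site (5.43% of tested genes), the AP-1 site (5.03%), the E-box (9.75%) or the TATA box (6.61%), which says nothing of binding. Outside these first starts, each of the other 3 listed starts of IL15RA held an AP-1 site. The windows of starts 2 and 4 overlap and hold the same site, and no share over all genes was counted for such starts. The GC content of the 7 windows at first starts ran from 63.0% to 79.3% with a median of 71.0%, against a median of 65.0% for tested genes. The promoters of TULP3 (chr12:2890641-2890940, plus strand) and NIPA1 (chr15:22786394-22786693, plus strand) are shown because they hold the NRF1 site, with GC box, CCAAT and NRF1 matches in capitals and adjoining GC boxes running together.
TULP3: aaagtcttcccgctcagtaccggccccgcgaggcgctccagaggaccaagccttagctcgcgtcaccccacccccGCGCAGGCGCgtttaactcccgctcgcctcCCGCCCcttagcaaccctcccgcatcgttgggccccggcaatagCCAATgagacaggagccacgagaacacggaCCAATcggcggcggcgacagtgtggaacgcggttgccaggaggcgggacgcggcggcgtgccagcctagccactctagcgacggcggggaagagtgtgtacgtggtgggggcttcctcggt
NIPA1: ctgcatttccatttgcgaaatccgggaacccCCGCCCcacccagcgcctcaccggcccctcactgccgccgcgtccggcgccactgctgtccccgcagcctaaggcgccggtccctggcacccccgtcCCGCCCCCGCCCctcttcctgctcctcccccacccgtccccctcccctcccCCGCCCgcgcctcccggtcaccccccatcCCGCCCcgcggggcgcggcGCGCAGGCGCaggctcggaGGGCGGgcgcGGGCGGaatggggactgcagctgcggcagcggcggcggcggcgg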

How the data were processed

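The RNeasy Plus kit gave RNA of the 3 lines, and it was sequenced from Lexogen mRNA libraries, per the labels' protocols. The deposited table holds whole-number counts per gene, not normalized. Bowtie2, RSEM 1.2.12 and hg19 are named in the submitters' processing notes without role or order, and whether the counts are rounded RSEM estimates, or counted by strand, is not given in the sources used here. Of 57736 IDs, 51959 were named from a reference table, 342 from GENCODE 29, and 5435 stayed unnamed. Totals of 18336672 to 25810934 counts limit the precision of low genes.

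The filterByExpr function, given the 6 groups, kept 17978 genes with 99.96% of counts, and libraries were scaled by TMM in edgeR 4.0.16 (R 4.3.3). Quasi-likelihood tests used all 10 libraries, with 1 mean per group, or an additive model of line and siRNA for the common change. They were two-sided, with Benjamini-Hochberg adjustment over all genes and calls at an adjusted p below 0.05. SE come from the F statistic. NCI-H2110 has no replicate and is given as a log2 ratio of CPM (prior count 2), without a test. DESeq2 1.42.0 and limma 3.58.1 (voom) were alternatives. The fits were tested on simulated data. Replicates were not copies (chi-square per gene 21.3 to 63.6).

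Libraries of the same number deviated together in 9332 genes (r = 0.534 in NCI-H2087 and 0.595 in NCI-H441), so a replicate block was also fitted. The labels do not say what the number marks.

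The 8 genes and all lists were chosen with earlier results of these data known. Partner genes were named where called (at most 4 per list), or by the smallest p of their list in the common change, neighbours all, and the 10 genes most like the mean. IL15 and RHNO1 were named for their relation to the 8, and PSG1, CDH1, ANXA2 and UQCC6 for their rank. SOCS3, ABCG2, CPOX, CNNM4 and NIPAL4 were given in other lines after their values were seen. Some genes that this rule names are not reported here.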

Additional observations from a re-analysis of the deposited data

How the results depend on the processing

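The 8 genes lay above control in every line under each alternative run that gave this count, and their changes kept their direction. They were chosen for that pattern in the same libraries, so nothing is read from this. In the main run 3.02% of all tested genes had the pattern. The 13 partner genes called in NCI-H2087 became 24 with no filter on low counts, 21 with DESeq2, 40 with the replicate block, and 0 to 16 with a library of NCI-H2087 or NCI-H441 left out. The 0 partner genes called in the common change became 11 with no filter, 7 with DESeq2, 1 without both NCI-H2110 libraries, and 0 to 1 with a library left out. The replicate block called 0 partner genes in NCI-H441 and in the common change. Libraries of both arms chose the 8 genes, so nothing is read from their counts between NCI-H2087 and NCI-H441. With control siRNA the 7 genes called lower, beside 20.1% of all tested genes, stayed at 7 with library totals alone, DESeq2 and limma-voom. The count did not hold in every alternative run. NIPA1, whose difference ran from −0.87 to −0.60, was not called in some with a library left out. In the p53 siRNA arm 3 were called, beside 43.9% of all tested genes. These 3 became 2 with library totals alone or DESeq2, and 1 with only the 4 p53 siRNA libraries of both lines. The LCLAT1 difference there ran from −0.21 to 0.01 with a library left out, the sign turning without p53 siRNA replicate 2 of NCI-H2087. The causes were not tested. NCI-H2087 over NCI-H441 was not fitted with a block, since the numbers were read as pairs within a line only, which the labels do not state. Each line has at most 2 libraries per arm, which limits every p.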
